A study of Mus musculus with 21 samples.

Results

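Mammary tumours of mice carrying the MMTV-ATX transgene were compared with those of mice carrying MMTV-LPA1. The 5 ATX and 5 LPA1 tumours were chosen by the tissue label of the array, and they are 10 of the 20 tumours and 11 of the 21 arrays of the series. Each tumour came from 1 mouse, and that of LPA1 mouse 4 was measured on 2 arrays, which were averaged. The other 10 tumours, 5 MMTV-LPA2 and 5 MMTV-LPA3, entered the same fit, where for ATX minus LPA1 they serve to estimate the spread. In fits with a term for the slide, described below, they also help to set that term, which shifts the difference ATX minus LPA1. Their own levels and differences from LPA1 are given for the leading genes. On every Agilent 2-colour array the tumour RNA carried Cy5 and a reference of whole-mouse total RNA carried Cy3, with no dye swap. Both transgenes carry the MMTV promoter, which is active mainly in the mammary epithelium, and their expression was not checked here. Strain, age, sex, founder line, histology and the species of each transgene are not given in the sources used here, and no normal gland was among the samples. All levels below are log2 ratios of tumour to whole-mouse RNA, and all differences are ATX minus LPA1 on that scale, with values listed in the order of mice 1 to 5.

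Autotaxin is a secreted enzyme that cuts lysophosphatidylcholine to lysophosphatidic acid (LPA), a lipid signal that acts on a family of G protein-coupled receptors. LPA1 is the most widely expressed of these receptors and couples to several G proteins, through which it affects cell movement, survival and the actin skeleton. The ATX group therefore carried the enzyme that makes the ligand, and the LPA1 group carried a receptor for it. In the mammary gland, luminal cells with the oestrogen and progesterone receptors answer hormones by secreting signals such as RANK ligand, other luminal cells make milk proteins, and myoepithelial cells form the contractile basal layer.

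The groups were spread unequally over the slides. ATX tumours lay on slide 1 (mouse 3), slide 3 (mice 4 and 5) and slide 4 (mice 1 and 2), numbered here in the order of the array titles. LPA1 tumours lay on slide 4 (mouse 3 and the repeat of mouse 4), slide 5 (mice 1 and 5), slide 6 (mouse 2) and slide 7 (first array of mouse 4). Ratios within an array had an SD of 1.195 to 1.291 for the ATX arrays, 1.253 to 1.432 for the arrays of LPA1 mice 3 and 4, and 0.844 to 0.903 for LPA1 mice 1, 2 and 5. Ratios on slides 5 and 6 were closer to 0, and no ATX tumour lay there. Differences were therefore also taken with a covariate for the slide set (slides 1 to 4 against slides 5 and 6), with each slide as a block, on slides 1 to 4 (5 ATX against LPA1 3 and LPA1 4) and on slide 4 alone (ATX 1 and 2 against LPA1 3 and 4). All of these settings took LPA1 4 from its repeat array alone.

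In these tumours the hormone-relay gene Tnfsf11 and the chemokine gene Ccl20 were higher in ATX than in LPA1 by 4.03 and 4.35 on the log2 scale, and the matrix gene Thbs4 was lower by 3.14. No single gene passed the threshold. Of 19069 genes tested with limma, 0 (0.0%) had an adjusted p under 0.05, with the smallest at 0.0852 for Tnfsf11. At an unadjusted p under 0.05 there were 1715 genes (8.99%), of which 667 (3.5%) were higher and 1048 (5.5%) lower in ATX. The split between higher and lower turned with the treatment of the slide. Under the slide set covariate 58.0% of the 1229 genes at that p were higher in ATX, and on slides 1 to 4 63.3% of 1179, against 38.9% when the slides were left out of the fit. After quantile normalization between arrays the share was 53.3% of 1873. The genes at that p were 6.45% of all genes under the slide set covariate, 5.87% with each slide as a block, 6.63% with the slide as a random block, 6.18% on slides 1 to 4 and 3.12% on slide 4, with 0 called in limma in each. The median difference over all genes was −0.06, and 43.9% of genes had a positive difference. The ATX and LPA1 tumours did not overlap in 235 of 19020 genes (1.24%), with ATX above in 130 (0.683%) and below in 105 (0.552%).

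When arrays were weighted by their residual spread, 1723 genes were called in limma (9.04%), 459 higher (2.41%) and 1264 lower (6.63%) in ATX. The weights were 1.18, 1.92 and 1.49 for LPA1 1, 2 and 5 and 0.344 and 0.599 for LPA1 3 and 4, so that LPA1 leaned on slides 5 and 6 in that fit. For ATX 1 to 5 they were 0.504, 1.81, 0.975, 1.96 and 0.636. The 25 genes called without ATX 1 (0.131%) comprised 23 higher and 2 lower in ATX. There were 4 calls without ATX 5 (0.021%), 1 without ATX 4 (0.00524%) and 0 without any other single tumour. The first array of LPA1 4 alone gave 2 (0.0105%), exact zeros as missing 2 (0.0118%), the feature of largest mean ratio 1 (0.00524%) and features taken singly 3 (0.00664%).

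The 12 genes of smallest p that were higher in ATX included 3 secreted signals. Tnfsf11, which encodes RANK ligand, the signal by which hormone-sensing mammary cells act on their neighbours, had 2.61, 5.17, 4.53, 4.75 and 2.39 in ATX tumours, against −0.31, −1.01, −0.65, 0.81 and 0.47 in LPA1 tumours. All 5 ATX tumours lay above all 5 LPA1 tumours, with ATX 1 and ATX 5 the lowest of their group. The difference was 4.03 (SE 0.638, limma adjusted p = 0.0852), and it was 4.35 with the slide set as a covariate and 3.43 on slides 1 to 4. Both features of Tnfsf11 were higher in ATX, by 4.66 and 3.4. Tnfsf11 passed the limma adjusted threshold in some other settings, at 0.035 with the first array of LPA1 4, 0.0123 without ATX 1 and 0.0127 without ATX 5. In others it did not pass, among them each treatment of the slide. The smallest limma adjusted p of any gene was 0.131 with the repeat array of LPA1 4. Without ATX 2 that smallest value was 0.279, and without LPA1 1 it was 0.311. The 2 arrays of LPA1 4 gave 0.041 and 1.57 for Tnfsf11.

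Ccl20, a chemokine that attracts cells with the receptor CCR6, had 2.05, 6.7, 5.62, 6.13 and 1.05 in ATX tumours and −0.58, 0.31, −0.52, −0.68 and 1.26 in LPA1 tumours. The high values were those of ATX 2, 3 and 4, and ATX 5 lay within the LPA1 range. The difference was 4.35 (SE 0.909, limma adjusted p = 0.198). Its SD was 2.57 in ATX and 0.83 in LPA1 tumours, which the fit pools into 1 spread.

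Bmp7, a bone morphogenetic protein, had −1.22, 1.29, 1.71, 1.55 and 1.1 in ATX tumours and −1.66, −1.24, −3.99, −1.69 and −1.03 in LPA1 tumours. ATX 1 lay among the LPA1 tumours, and the other 4 ATX tumours lay above all of them. The difference was 2.81 (SE 0.619, limma adjusted p = 0.221), with 3.45 under the slide set covariate and 3.81 on slides 1 to 4.

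Enzymes of amine synthesis formed another pair. Pnmt, the enzyme that makes adrenaline from noradrenaline, had 2.52, 3.57, 2.72, 3.08 and −0.15 in ATX tumours and −0.079, 0.003, −0.75, −1.37 and 0.74 in LPA1 tumours. Tph1, which carries out the rate-limiting step of serotonin synthesis outside the brain and is known in the mammary gland, had 0.73, 3.58, 3.44, 3.18 and 2.48 in ATX tumours and 0.75, 0.97, −0.7, 0.5 and 1.1 in LPA1 tumours. A single ATX tumour lay within the LPA1 range for each gene, ATX 5 for Pnmt and ATX 1 for Tph1. The differences were 2.64 for Pnmt (SE 0.529) and 2.16 for Tph1 (SE 0.443), both with a limma adjusted p of 0.198.

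Regulators of signalling showed less spread among ATX tumours. Dusp4, a phosphatase that switches off MAP kinases, had 2.04, 2.22, 1.7, 2.13 and 2.58 in ATX tumours and −0.22, −0.89, −0.8, 0.93 and 0.71 in LPA1 tumours. Vav3, a signalling protein of the Vav family, had 0.53, 0.96, 0.78, 0.94 and 0.59 in ATX tumours and −0.045, −0.028, −1.23, −0.28 and −1.27 in LPA1 tumours. Neither gene overlapped between the groups, and both had differences beyond the SD of either group, at 2.19 (SE 0.444) for Dusp4 and 1.33 (SE 0.271) for Vav3, with a limma adjusted p of 0.198 each.

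The other 5 genes of this set had limma adjusted p-values from 0.139 to 0.221. Nabp1, a protein that binds single-stranded DNA, was higher by 1.00 and Ccdc186 by 0.90. Gsta4, a glutathione transferase that clears products of lipid peroxidation, was higher by 1.61 over 10 features. Slitrk6, a membrane protein studied in neurons, was higher by 4.23, from the means 0.85 ± 2.3 in ATX and −3.38 ± 0.698 in LPA1 tumours (SD, n = 5 each), with ATX 1 at −2.9. The protocadherin Pcdhb11 was higher by 1.95. The difference of Nabp1 was 0.53 on slides 1 to 4, and its first and repeat arrays of LPA1 4 read 0.8 and 2.19.

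**Figure D1:**
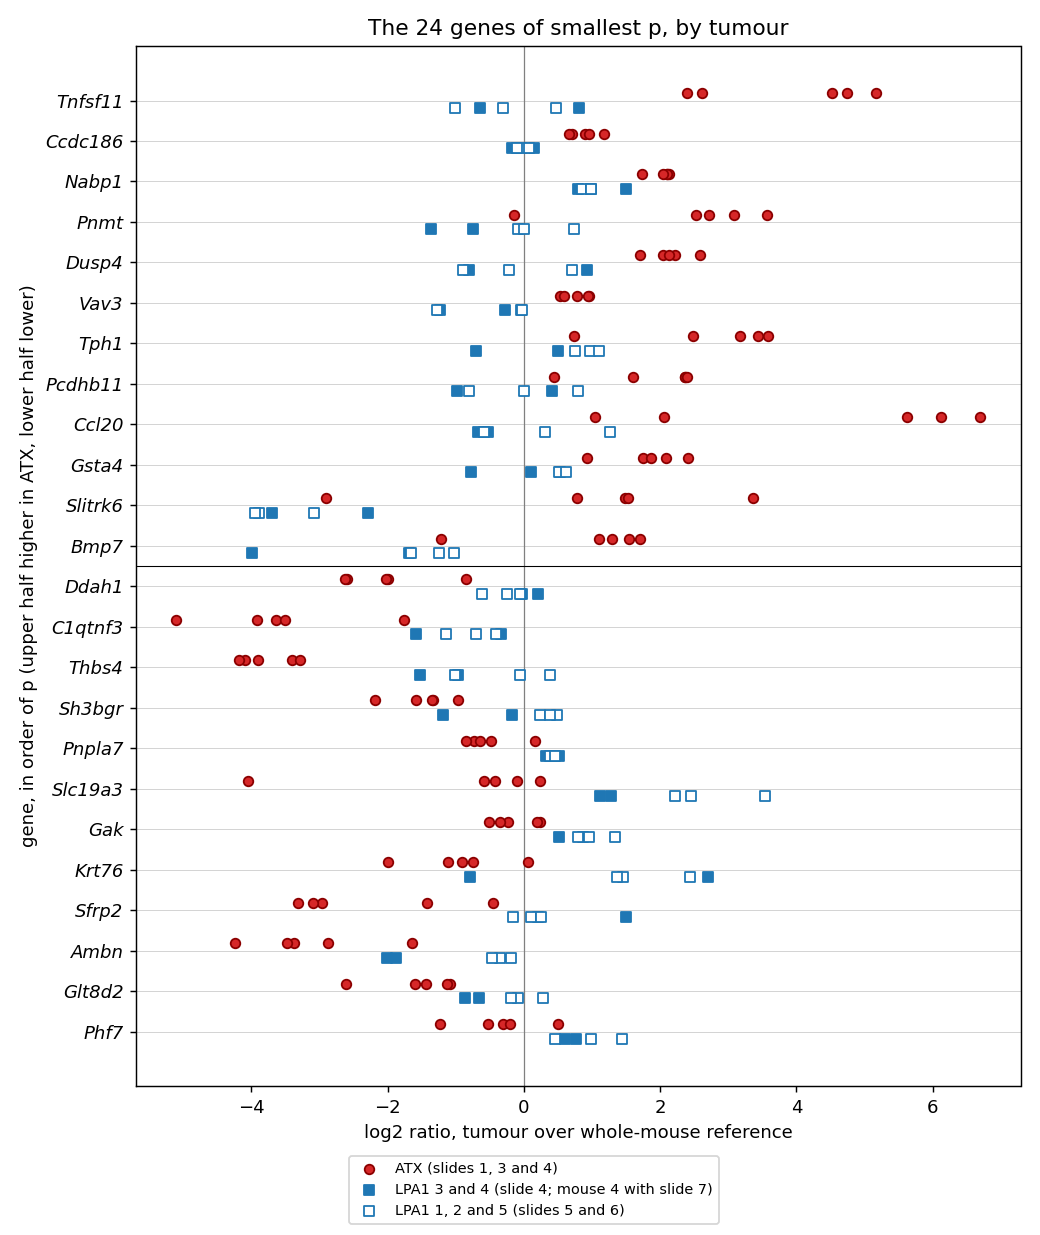
Log2 ratio of tumour to whole-mouse reference (x axis) in each tumour for the 24 genes of smallest p (y axis, 12 higher and 12 lower in ATX), with ATX tumours as red circles, LPA1 3 and 4 as filled squares and LPA1 1, 2 and 5 (slides 5 and 6) as open squares. For Tnfsf11 every circle lies above 2 and every square below 1, whereas for Slitrk6, Bmp7, Tph1 and Pnmt 1 circle lies apart among or near the squares.

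Of the genes lower in ATX, several encode secreted or matrix proteins. Thbs4, a thrombospondin of the extracellular matrix, had −4.1, −4.18, −3.4, −3.9 and −3.28 in ATX tumours and 0.38, −1.01, −0.96, −1.53 and −0.051 in LPA1 tumours. All ATX tumours lay far below all LPA1 tumours, with a difference of −3.14 (SE 0.608, limma adjusted p = 0.171). It was −1.86 under the slide set covariate and −2.41 on slides 1 to 4.

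Sfrp2, a secreted modulator of Wnt signals, had −1.42, −3.31, −2.97, −3.09 and −0.46 in ATX tumours and 0.1, −0.16, 0.21, 1.5 and 0.25 in LPA1 tumours. The groups did not overlap, with ATX 5 nearest to LPA1 and LPA1 4 highest of all. The difference was −2.63 (SE 0.62, limma adjusted p = 0.283) and −3.17 on slides 1 to 4.

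C1qtnf3, a secreted relative of complement C1q, had −3.64, −5.1, −3.91, −1.76 and −3.5 in ATX tumours and −0.41, −1.14, −1.59, −0.33 and −0.7 in LPA1 tumours. The groups did not overlap, although ATX 4 came close. That value joins a feature listed at exactly 0.0 and one at −3.52. The difference was −2.74 (SE 0.524, limma adjusted p = 0.171), and −3.1 (limma adjusted p = 0.0302) when ratios of exactly 0 were treated as missing. Ambn, a protein of enamel matrix, was lower by 2.14 over all slides, and its difference on slides 1 to 4 was −0.76.

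Ddah1, which breaks down the methylated arginines that inhibit nitric oxide synthases, had the smallest p of the lower genes. It had −2.0, −2.59, −2.02, −2.62 and −0.85 in ATX tumours and −0.25, −0.057, 0.21, −0.02 and −0.62 in LPA1 tumours. The groups did not overlap, but ATX 5 lay close to LPA1 5. The difference was −1.87 (SE 0.318, limma adjusted p = 0.106), with −1.89 under the slide set covariate and −2.2 on slides 1 to 4. Without ATX 5 it was −2.16 (limma adjusted p = 0.0034).

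The other 7 lower genes had limma adjusted p-values of 0.221 to 0.317. Pnpla7, a phospholipase family member that acts on lysophosphatidylcholine, the substrate of autotaxin, differed by −0.92, with means of −0.50 ± 0.4 in ATX and 0.42 ± 0.0743 in LPA1 tumours (SD, n = 5 each) and no overlap. The thiamine transporter Slc19a3 differed by −3.11 and Gak, a kinase that helps uncoat clathrin vesicles, by −1.02. Krt76, an epithelial keratin, differed by −2.37, Sh3bgr by −1.43, the glycosyltransferase family member Glt8d2 by −1.27 and Phf7, a chromatin protein known from the testis, by −1.20. The differences of Slc19a3 (−1.39), Sh3bgr (−0.48), Glt8d2 (−0.47) and Phf7 (−0.74) on slides 1 to 4 were smaller by more than 1.5 times.

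These 24 genes were picked by their p in this comparison, so their counts describe the choice. The sign was kept and the unadjusted p was under 0.05 in 24 under the slide set covariate, in 22 under the slide block, in 18 on slides 1 to 4 and in 8 on slide 4. Those tumours are among the ones that picked the genes. In 14 of the 24 the groups did not overlap. The repeat arrays of LPA1 4 differed by more than 1 in 11 of the 24.

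**Figure D2:**
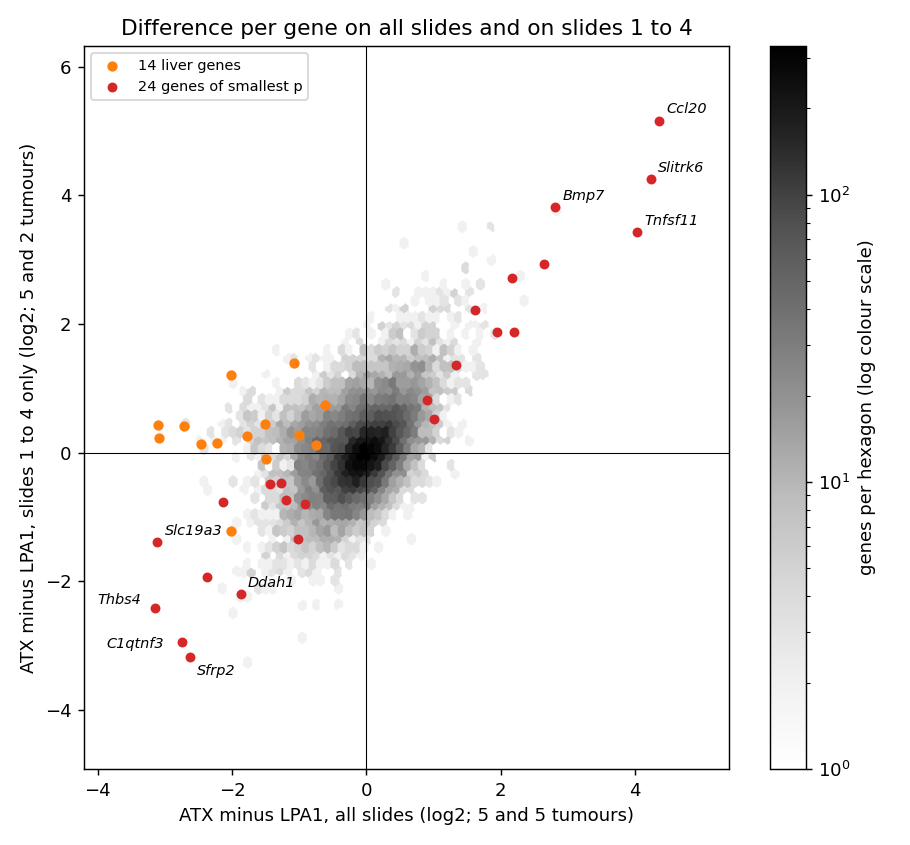
Difference ATX minus LPA1 of each gene on all slides (x axis, log2, 5 and 5 tumours) against that on slides 1 to 4 (y axis, log2, 5 and 2 tumours), with the density of 19069 genes in grey on a log colour scale, the 24 genes of smallest p in red and the 14 liver genes in orange. The red points keep their sign, with Ccl20 at 4.35 and 5.16, while most liver genes run from clearly negative values on the x axis to values near or above 0 on the y axis.

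Promoters are shown for Tnfsf11 and Ddah1, which had the smallest p among genes higher and lower in ATX. The sequences are RefSeq's windows of 300 bases from 250 before to 50 after the start, on build GRCm38.p6, read 5′ to 3′ on the strand of the gene. Tnfsf11 lies at chr14:78307994-78308293 on the minus strand and Ddah1 at chr3:145758442-145758741 on the plus strand. The search for motifs covered both strands and 3 motifs. These were the STAT5 motif (TTC, any 3 bases, GAA), the oestrogen receptor motif (GGTCA, any 3 bases, TGACC) and the TATA box (TATAAA), and a match is printed in capitals.
Tnfsf11: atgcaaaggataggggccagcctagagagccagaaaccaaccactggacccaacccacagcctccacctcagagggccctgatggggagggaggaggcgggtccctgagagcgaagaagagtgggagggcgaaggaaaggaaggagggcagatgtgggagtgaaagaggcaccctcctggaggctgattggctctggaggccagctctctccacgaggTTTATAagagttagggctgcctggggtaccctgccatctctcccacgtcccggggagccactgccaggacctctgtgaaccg
Ddah1: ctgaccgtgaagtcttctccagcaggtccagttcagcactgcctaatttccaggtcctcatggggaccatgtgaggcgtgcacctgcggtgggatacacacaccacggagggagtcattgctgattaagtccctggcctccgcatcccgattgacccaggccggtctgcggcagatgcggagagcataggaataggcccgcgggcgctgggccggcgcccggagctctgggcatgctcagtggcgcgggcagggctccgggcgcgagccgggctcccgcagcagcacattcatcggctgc
The capitals in Tnfsf11 are a TATA box on the opposite strand that begins 32 bases before the start. The Ddah1 window held none of the 3 motifs, which says only that these letters are not in it. Of all 32851 promoter windows, 13.6% held the TATA box, 8.3% the STAT5 motif and 0.07% the oestrogen receptor motif. Of the 24 genes, 17 had 20 windows, of which 4 held the TATA box and 0 either of the other motifs.

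Of the LPA receptor genes, 5 were measured and 0 were called. Lpar1, the mouse gene of the receptor that the LPA1 transgene is named for, had −1.9, −1.94, −2.01, −2.0 and −0.79 in ATX tumours, against 0.3, −0.2, −2.89, −0.14 and 0.013 in LPA1 tumours. LPA1 tumours other than LPA1 3 lay above the ATX tumours and near the level of the whole-mouse reference, whereas LPA1 3 was the lowest of all. The difference was −1.14 (SE 0.595, limma adjusted p = 0.568), and it was −0.14 with the slide set as a covariate and −0.035 on slides 1 to 4. Whether the 2 features of Lpar1 detect the transgene is not given, so they do not check the labels, and Enpp2, the gene of autotaxin, and Lpar5 were not analysed here.

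Differences of the other receptor genes were 0.52 for Lpar2 (SE 0.446), 0.032 for Lpar3 (SE 0.562), 0.44 for Lpar4 (SE 0.259) and 0.26 for Lpar6 (SE 0.168), with limma adjusted p-values of 0.612 to 0.995. In the list of the LPA axis, which joins the receptors to the lipid phosphatases and enzymes that remove or make LPA, 8 of 12 measured members were higher in ATX and 0 were called. The median difference of the list was 0.16, against −0.06 over all genes. Plpp3, a phosphatase that degrades LPA outside the cell, was the 1 member at an unadjusted p under 0.05. It had −0.34, 0.59, 0.28, 0.45 and −0.71 in ATX tumours and −0.73, −0.63, −1.6, −0.99 and −0.044 in LPA1 tumours. The difference was 0.85 (SE 0.346, limma adjusted p = 0.511), with overlap at ATX 1 and 5, and 1.36 on slides 1 to 4.

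Of the 29 gene lists, which held 384 measured entries, 0 had a called member, and in 13 the median had the same sign on all slides, under the slide set covariate, under the slide block, on slides 1 to 4 and on slide 4. Members named below beyond the 3 of largest difference per list were chosen after their values were seen, because their unadjusted p was under 0.05 or they define the list. In bulk tumours, fewer cells of a type and less RNA per cell cannot be told apart. In the lists below the groups' list medians overlapped without exception.

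Of 10 hormone-sensing genes, 9 were higher in ATX. Their median difference was 1.08, against −0.06 over all genes, and 5 members (Esr1, Tnfsf11, Wnt4, Cited1 and Tbx3) at an unadjusted p under 0.05. The list median was 1.08 to 1.39 in the fits without a slide term, under the slide set covariate, on slides 1 to 4 and on slide 4, and 0.82 with the slide as a block. By tumour the median of the list was −0.86, 1.84, 1.93, 1.7 and 0.24 in ATX tumours, against −0.32, −0.02, −1.56, −0.53 and 0.23 in LPA1 tumours. ATX 2, 3 and 4 were high, while ATX 1 lay below 4 of the 5 LPA1 tumours.

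Esr1, the oestrogen receptor, had 2.53, 3.87, 2.61, 3.6 and 1.74 in ATX tumours and 1.46, 1.72, 2.21, 1.8 and 1.65 in LPA1 tumours. It stood above the reference in all 10 tumours, and only ATX 5 lay inside the LPA1 range. The difference was 1.10 (SE 0.408, limma adjusted p = 0.511), with 10 of its 11 features higher in ATX by 1.11 to 1.38 and 1 differing by −0.43. Pgr, the progesterone receptor, had 0.0, 3.18, 1.88, 1.77 and 0.063 in ATX tumours and −0.043, 1.61, 0.65, −0.014 and 2.01 in LPA1 tumours, with a difference of 0.54 (SE 0.509) that did not exceed the spread.

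Wnt4, a Wnt ligand made downstream of progesterone, was higher by 1.88 (SE 0.596, limma adjusted p = 0.5). Its values were −0.72, 1.64, 2.23, 1.58 and −0.049 in ATX tumours and −0.16, −0.22, −2.54, −1.79 and 0.0 in LPA1 tumours. Cited1, a coactivator of the oestrogen receptor, was higher by 1.84 (SE 0.583, limma adjusted p = 0.5), with −0.44, 3.01, 2.94, 2.86 and 0.96 in ATX tumours and 0.6, 0.67, −1.49, −0.62 and 0.98 in LPA1 tumours. For both genes ATX 2, 3 and 4 lay above every LPA1 tumour and ATX 1 and 5 did not. On slides 1 to 4 the differences were 3.05 and 3.04. Tff3 was the 1 member lower in ATX, by 0.78 over all slides, and its difference was 0.28 on slides 1 to 4.

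Of 16 basal and myoepithelial genes, 15 were higher in ATX. Their median difference was 0.72 over all slides and 1.60 on slides 1 to 4. The list median was −0.011, 0.77, 0.26, 0.8 and 0.38 in ATX tumours and −0.26, 0.013, −2.09, −0.94 and 0.1 in LPA1 tumours. LPA1 3 was far below the rest and LPA1 4 next. The other 3 LPA1 tumours, on slides 5 and 6, lay near the lowest ATX tumours.

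Cnn1, calponin of contractile cells, had 1.15, 1.43, 0.63, 1.36 and −0.65 in ATX tumours and −0.63, 0.089, −4.0, −1.35 and −0.19 in LPA1 tumours, a difference of 2.00 (SE 0.743, limma adjusted p = 0.511). The hemidesmosome collagen Col17a1 had −0.32, 0.89, 0.95, 1.24 and 2.81 in ATX tumours and 0.012, 0.22, −3.22, −1.32 and 0.5 in LPA1 tumours, a difference of 1.88 (SE 0.669, limma adjusted p = 0.51). In both genes 4 ATX tumours lay above all LPA1 tumours, and LPA1 3 lay lowest. Trp63, the transcription factor p63 of basal cells, was higher by 1.14 (SE 0.492) and the cadherin Cdh3 by 0.79 (SE 0.375). The basal keratins Krt14 and Krt5 had differences of 0.077 (SE 0.675) and 1.15 (SE 0.749), with ATX 5 the highest tumour for each, at 2.33 and 1.91. Snai2, a transcription factor of basal mammary cells from the mesenchymal transition list, was higher by 1.71 (SE 0.6, limma adjusted p = 0.508), with −0.089, 1.35, 0.45, 1.4 and 0.78 in ATX tumours and −0.96, −0.41, −3.09, −0.37 and 0.17 in LPA1 tumours.

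Luminal epithelial markers, which check the labelled tissue, had list medians above the reference in all 10 tumours, at 1.27 to 1.82 in ATX and 0.35 to 1.95 in LPA1. Of 17 members, 13 were higher in ATX, and the median difference was 0.35. Under the slide set covariate the median was 0.28 and under the slide block 0.046, with 9 of 17 higher in each. On slides 1 to 4 it was 0.65 with 11 of 17 higher. Gata3, the master regulator of luminal cells, had 3.11, 3.39, 3.75, 3.89 and 1.27 in ATX tumours and 1.53, 1.23, 2.54, 1.85 and 1.28 in LPA1 tumours. ATX 5 lay within the LPA1 range and the other 4 above it, with a difference of 1.39 (SE 0.642, limma adjusted p = 0.539). Cldn4, a tight junction claudin, was higher by 2.01 (SE 0.832), while the luminal keratins Krt8 and Krt18 had differences of −0.21 (SE 0.454) and 0.35 (SE 0.534). Under the slide set covariate these 2 keratins differed by −1.04 and −0.74, and under the slide block by −1.0 and −0.76. On slides 1 to 4 they differed by −1.11 and −0.64.

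Epithelial junction genes were higher in 14 of 18 members with a median of 0.34. Under the slide set covariate the median was 0.25 with 13 of 18 higher, and under the slide block 0.16 with 11 of 18. On slides 1 to 4 it was 0.30 with 13 of 18 higher. F11r, the junctional adhesion molecule A, had 0.77, 1.43, 1.72, 1.41 and 1.55 in ATX tumours and 0.47, 0.54, 0.62, −0.27 and 0.22 in LPA1 tumours, with no overlap. The difference of F11r was 1.06 (SE 0.458, limma adjusted p = 0.52). It was 0.69 under the slide set covariate, 0.81 under the slide block and 1.41 on slides 1 to 4. Cldn1 went the other way, by −1.15 (SE 0.481), with LPA1 3 at 2.07.

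Milk protein genes differed in sign between all slides and slides 1 to 4. Over all slides 12 of 15 were higher in ATX, the median difference being 1.10, and on slides 1 to 4 0 of 15 were higher with a median of −0.65. The median kept its sign under the slide set covariate, at 0.22 with 9 of 15 higher, and under the slide block, at 0.62 with 10 of 15. Csn2, beta-casein, had 9.8, 9.03, 6.25, 8.56 and 8.17 in ATX tumours, against 9.07 and 8.27 in LPA1 3 and 4 and 2.19, 2.48 and 1.71 in LPA1 1, 2 and 5. The 2 LPA1 tumours on slide 4 were as high as the ATX tumours, and those on slides 5 and 6 were lower by more than 5. The difference of Csn2 was 3.62 (SE 1.62, limma adjusted p = 0.53) over all slides and −0.26 on slides 1 to 4. Csn3, kappa-casein, differed by 2.24 (SE 1.02) and −0.38 in the same settings. The median of the milk list was 1.79 to 5.0 in ATX tumours, 3.74 to 4.85 in LPA1 3 and 4 and 1.47 to 1.63 in LPA1 1, 2 and 5. The part of the slide in this was not tested.

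Milk genes are known targets of prolactin through STAT5, and the Csn2 promoter is shown for its match, in capitals, to the STAT5 motif. It lies at chr5:87699376-87699675 on the minus strand (RefSeq, GRCm38.p6, 5′ to 3′).
Csn2: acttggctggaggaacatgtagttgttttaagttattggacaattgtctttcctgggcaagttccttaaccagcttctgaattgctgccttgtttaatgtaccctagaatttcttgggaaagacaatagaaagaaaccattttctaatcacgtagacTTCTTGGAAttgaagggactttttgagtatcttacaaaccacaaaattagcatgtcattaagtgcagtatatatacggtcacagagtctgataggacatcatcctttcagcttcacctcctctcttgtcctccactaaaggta
The match begins 93 bases before the start. Windows were at hand for 10 of the 15 milk genes, and 4 of the 10 held the motif, against 8.3% of all windows. No value here bears on binding at this site.

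**Figure D3:**
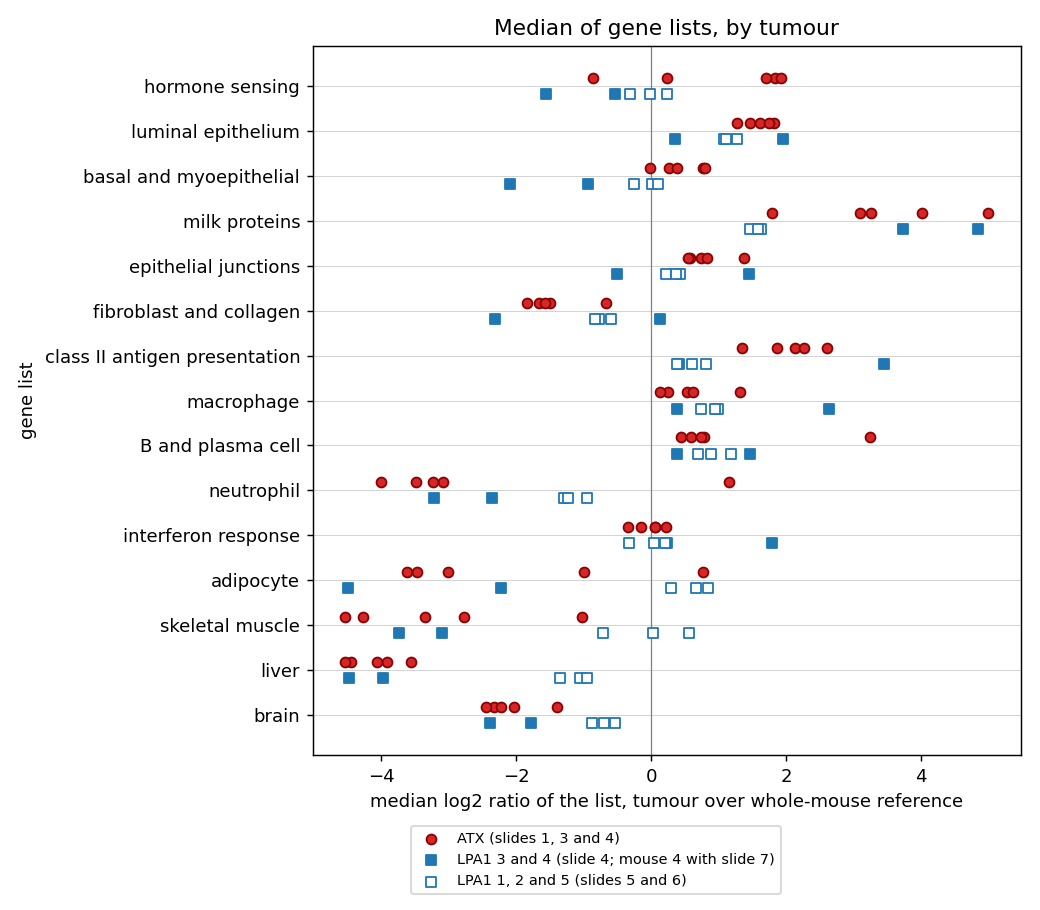
Median log2 ratio to the whole-mouse reference (x axis) of the members of 15 gene lists (y axis) in each tumour, with ATX tumours as red circles, LPA1 3 and 4 as filled squares and LPA1 1, 2 and 5 as open squares. In the liver list the filled squares lie with the circles and the open squares apart, and in the hormone sensing list 3 circles at 1.7 to 1.93 lie above all squares.

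Genes of other tissues of a whole mouse differed widely between LPA1 tumours on different slides. Liver genes were lower in ATX in 14 of 14 members with a median of −1.90, and the median was 0.063 under the slide set covariate, −0.16 under the slide block and 0.27 on slides 1 to 4. The list median lay between −4.54 and −3.56 in ATX tumours, at −4.48 and −3.98 in LPA1 3 and 4, and between −1.35 and −0.95 in LPA1 1, 2 and 5. Skeletal muscle (median −1.64, and 0.76 on slides 1 to 4) and adipocyte genes (−1.24, and 1.11) also differed in sign between these settings, as did brain genes (−0.66, and 0.18, with −0.11 under the covariate and −0.16 under the block). Adipocyte genes differed between ATX tumours, with list medians of 0.77 in ATX 1, −0.99 in ATX 5 and −3.62 to −3.02 in ATX 2, 3 and 4. The largest counts lower in ATX at an unadjusted p under 0.05 among the lists were 6 of 14 liver and 4 of 11 brain genes. Over all genes there were 1048 (5.5%). Both list counts were 0 under the slide set covariate, under the slide block and on slides 1 to 4.

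Fibroblast and collagen genes were lower in ATX in 13 of 14 members, with a median of −0.67 over all slides and −0.60 on slides 1 to 4. Under the slide set covariate the median was −0.41 with 4 of 14 members higher, and under the slide block −0.15 with 6 of 14 higher. Col1a1, a chain of type I collagen measured by 12 features, had −3.87, −2.97, −3.91, −3.91 and −0.96 in ATX tumours and −1.16, −1.03, −2.92, −0.61 and −0.81 in LPA1 tumours. ATX 5 and LPA1 3 broke the pattern, each lying in the range of the other group. The difference was −1.82 (SE 0.814, limma adjusted p = 0.53), with −0.71 under the slide set covariate and −0.23 under the slide block. Col6a1 differed by −1.16 (SE 0.444) and the microfibril protein Mfap5 by −1.06 (SE 0.487), both with limma adjusted p over 0.5, and Mfap5 by 0.031 under the slide block. LPA1 3 was the lowest of the 10 tumours in this list, at −2.31, and LPA1 4 the highest, at 0.13.

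Interferon response genes were lower in ATX in 14 of 14 members, with a median of −0.66, and −0.99 on slides 1 to 4. Only Oas1a, a sensor of double-stranded RNA, had an unadjusted p under 0.05. It had 0.32, 0.38, 0.57, 0.8 and 1.21 in ATX tumours and 2.16, 0.95, 2.68, 2.09 and 0.65 in LPA1 tumours, a difference of −1.05 (SE 0.46, limma adjusted p = 0.52). Ifit3, another interferon-induced gene, narrowly missed overlapping between the groups, with −0.32, −1.06, −1.12, −0.59 and −0.74 in ATX tumours and 0.38, −0.17, 0.051, 0.14 and −0.3 in LPA1 tumours. LPA1 3 stood high for the list, with a median of 1.79, while the other LPA1 tumours lay at −0.33 to 0.23 and the ATX tumours at −0.34 to 0.22. The antiviral GTPase Mx2 shows the same tumour, at 3.06 in LPA1 3 and 0.1 to 0.73 in the other LPA1 tumours.

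Class II antigen presentation genes were higher in ATX in 10 of 10 members with a median of 0.89, which was 0.14 on slides 1 to 4. Cd74, the invariant chain, had 2.0, 2.18, 1.21, 2.04 and 2.17 in ATX tumours and −0.17, 0.16, 0.17, 3.08 and 0.55 in LPA1 tumours. LPA1 4 exceeded every ATX tumour and the other 4 LPA1 tumours lay below them. The difference was 1.16 (SE 0.518, limma adjusted p = 0.529). Macrophage markers were lower in 9 of 10 members with a median of −0.56, and LPA1 4 was highest there too, with a list median of 2.63 against 0.38 to 0.99 in the other LPA1 tumours and 0.13 to 1.32 in ATX tumours. C1qb, a complement chain made by macrophages, differed by −0.92 (SE 0.41, limma adjusted p = 0.53).

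The T and NK cell list had a median of 0.078 (−0.20 on slides 1 to 4) with 8 of 14 members higher in ATX, but its CD8 chains were lower, Cd8b1 by 1.33 (SE 0.45) and Cd8a by 0.87 (SE 0.331), with limma adjusted p-values of 0.505 and 0.511. B and plasma cell genes had a median of 0.31, which was −0.22 under the slide set covariate and −0.51 under the slide block, and ATX 5 stood at 3.24 for that list and the other ATX tumours at 0.44 to 0.78. Neutrophil genes had a median of −0.47, which was 0.56 under the slide set covariate, 0.38 under the slide block and 0.67 on slides 1 to 4, and ATX 5 was again apart, at 1.16 against −4.0 to −3.08 in the other ATX tumours. Inflammatory mediators had a median of 0.31, and −0.36 on slides 1 to 4. The cytokine Il6 was highest in ATX 5, at 3.8, while the prostaglandin synthase Ptgs2 stood at 3.06 in ATX 5 and 3.25 in LPA1 4. Endothelial genes had a median of 0.081, and 0.51 on slides 1 to 4.

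Cell division genes were lower in 14 of 17 members, but by little, with a median of −0.18 over all slides. With arrays weighted the median was 0.32 and 16 of 17 members were higher in ATX. On slides 1 to 4 the median was −0.95 with 17 of 17 members lower, where LPA1 3, with the highest list median of 1.45, is 1 of 2 LPA1 tumours. Mki67, the usual marker of cycling cells, had −1.83, −0.43, −0.48, −0.84 and −0.84 in ATX tumours and −0.66, −0.92, 0.035, −0.95 and −1.02 in LPA1 tumours, a difference of −0.18 (SE 0.449) within the spread. Birc5, survivin, did not overlap between the groups and differed by −0.82 (SE 0.551), with ATX 1 lowest at −1.51.

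Growth factor genes of the ErbB family had a median of 0.29 with 6 of 11 members higher. Nrg1, neuregulin 1, a ligand of ERBB3 and ERBB4, had −0.78, 2.67, 2.05, 2.58 and 0.98 in ATX tumours and −0.047, −0.3, −0.46, 0.21 and −0.73 in LPA1 tumours, a difference of 1.77 (SE 0.507, limma adjusted p = 0.446). The difference was 1.53 under the slide set covariate, 1.48 under the slide block, 1.04 on slides 1 to 4 and 0.48 on slide 4. For Nrg1, ATX 1 was the lowest of the 10 tumours and the other 4 ATX tumours the highest. Its receptor Erbb3 was higher by 0.67 (SE 0.294, limma adjusted p = 0.52). The difference of Erbb3 was 0.37 under the slide set covariate, 0.14 under the slide block, 0.37 on slides 1 to 4 and 0.26 on slide 4. Genes responsive to YAP and SRF had 5 of 12 members higher and a median of −0.028, although Ankrd1, a YAP target, was lower by 1.95 (SE 0.664, limma adjusted p = 0.505). The difference of Ankrd1 was −1.02 under the slide set covariate, −0.74 under the slide block and −1.03 on slides 1 to 4. LPA1 3, at −2.58, lay within the ATX range of this gene. Immediate early genes had a median of 0.35 over all slides and 0.26 to 0.53 under the other treatments of the slide. Squamous differentiation genes had −0.21 over all slides and −0.051 with the slide as a random block. The squamous median turned to 0.29 to 0.73 under the slide set covariate, the slide block, slides 1 to 4 and slide 4. On slides 1 to 4, 13 of 13 squamous members were higher. The mesenchymal transition list had −0.26, and 0.092 and 0.17 under the slide set covariate and the slide block. The medians of matrix metalloproteinases (−0.31), fatty acid synthesis (−0.089), hypoxia and glycolysis (−0.30) and Wnt targets (0.019) each changed sign under at least 1 treatment of the slide.

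**Figure D4:**
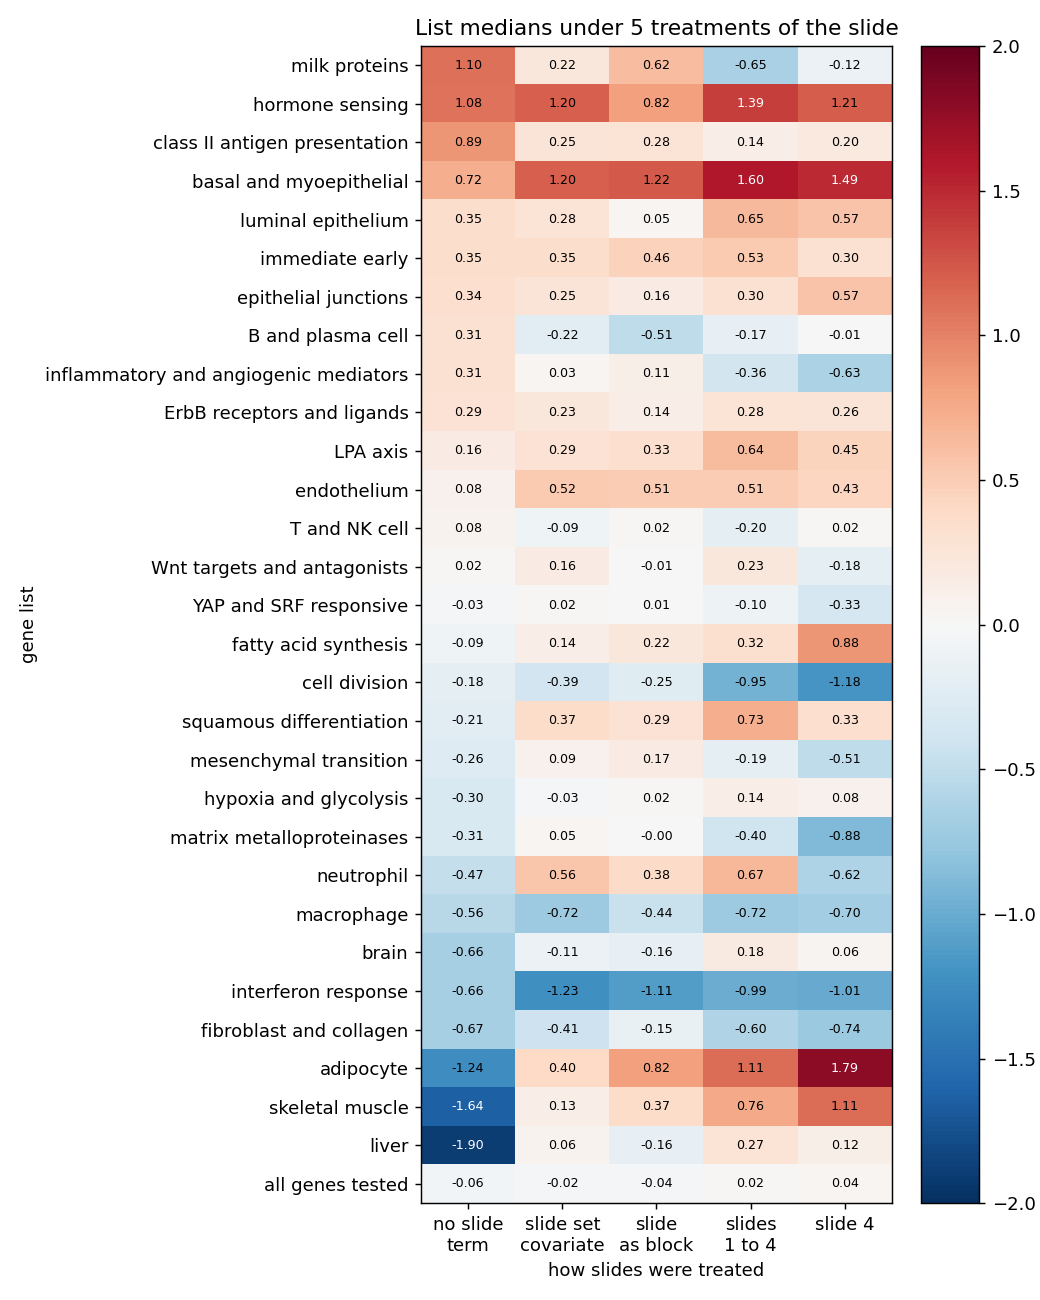
Median difference ATX minus LPA1 (log2, printed and coloured) of the 29 gene lists and of all genes tested (y axis) under 5 treatments of the slide (x axis). In 13 of the 29 lists the sign is the same in every column. Among these, hormone sensing, basal and class II genes are positive and interferon, macrophage and fibroblast genes negative. The remaining lists change sign in at least 1 column, among them liver, skeletal muscle, adipocyte, milk, squamous, neutrophil and mesenchymal transition genes.

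The tumours of a genotype were not uniform. Over 19020 genes measured in all 10 tumours, log2 ratios correlated at 0.532 to 0.858 between ATX tumours and 0.441 to 0.639 between LPA1 tumours, as a description of tumours that share the reference RNA. ATX 2, 3 and 4, the 3 tumours with the highest Tnfsf11, Ccl20 and Cited1, correlated at 0.738 to 0.858 with each other. ATX tumours correlated with LPA1 3 and 4 at 0.585 to 0.717 and with LPA1 1, 2 and 5 at 0.398 to 0.559. The 2 arrays of LPA1 4, on slides 7 and 4, correlated at 0.765 with a median absolute difference of 0.399, and 17.0% of 19066 genes differed by more than 1 between them. The median absolute difference of ATX minus LPA1 was 0.281, and 1520 genes (7.97%) exceeded 1.

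For the leading genes, levels in tumours of the other receptor transgenes stand beside those above. Tnfsf11 had means of 0.54 ± 1.49 in LPA2 tumours and 0.061 ± 0.476 in those of LPA3 (SD, n = 5 each), beside −0.14 in LPA1. Dusp4 had 0.96 in LPA2 and 1.97 in LPA3 tumours, beside 2.13 in ATX. Bmp7 had −1.25 in LPA2 and 0.79 in LPA3 tumours, and Sfrp2 −0.92 and −2.38. In the tests LPA2 minus LPA1 and LPA3 minus LPA1, 0 of the 24 genes were called in limma, with smallest adjusted p-values of 0.999 and 0.264, beside 0 (0.0%) and 1 (0.00524%) of all genes. At an unadjusted p under 0.05 there were 5 and 10 of the 24, beside 697 (3.66%) and 1755 (9.2%) of all genes. In each test 18 of the 24 had the same sign as in ATX minus LPA1. The 24 were picked with these same LPA1 tumours, so these counts describe the choice too. The 3 comparisons share the LPA1 tumours.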

How the data were processed

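Total RNA of mammary tumours (Cy5) and of whole mouse (Cy3) was hybridised to Agilent arrays, per the labels. The authors deposited 1 table of log2 ratios for 45220 features on 21 arrays. Its log base, background correction and normalization are not given in the sources used here. Values from −11.44 to 9.86 and array medians of 0 were taken as centred log2 ratios, tumour over reference.

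Features with 1 gene symbol (33653, of which 33517 were matched by gene number) were averaged into 19087 genes, 8343 of them from more than 1 feature. Features with several symbols (56) or none (11511) were left out. The arrays of LPA1 mouse 4 were averaged. Genes with at least 4 tumours per genotype (19069) were fitted in R 4.3.3 with limma 3.58.1 (lmFit, eBayes) over 20 tumours and 4 genotypes, leaving 16 residual degrees of freedom, and p-values were adjusted by Benjamini-Hochberg over all genes. A call needs an adjusted p under 0.05. The fit was tested on simulated data with independent tumours and no slide effect, so that test does not cover the uneven slides. Python 3.11.15 with numpy 2.4.6, pandas 2.3.3 and matplotlib 3.10.9 made the summaries and figures.

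With under 10 genes called, the rule named the 12 genes of smallest p in each direction, the 3 members of largest difference in each list and the LPA receptor genes. Members and gene lists were chosen with earlier results of these data known. Mice are the replicates. Per-feature depth does not apply to arrays, and their number limits the precision. Alternatives covered the slide, the repeat array, normalization, array weights, exact zeros, features, the replicate number and leaving out each tumour.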

Additional observations from a re-analysis of the deposited data

Results flagged for a closer look

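In 18 of 116 groups of 5 values, 1 tumour stood apart from the other 4, with a gap to its neighbour of more than 0.71 of the whole range. Chance gives about 1 in 20 groups, and the groups share tumours.

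Among single genes, ATX 5 stood low for Nabp1 (1.74, next 2.04) and Pnmt (−0.15, next 2.52) and high for Lpar1 (−0.79, next −1.9). ATX 1 stood low for Bmp7 (−1.22, next 1.1) and ATX 4 for Slc19a3 (−4.05, next −0.58). LPA1 3 stood low for Bmp7 (−3.99, next −1.69) and Lpar1 (−2.89, next −0.2). LPA1 4 stood high for Nabp1 (1.5, next 0.99) and Sfrp2 (1.5, next 0.25).

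Among list medians, ATX 5 stood high for inflammatory and angiogenic mediators (2.83, next 0.58), neutrophil genes (1.16, next −3.08), B and plasma cell genes (3.24, next 0.78) and Wnt targets and antagonists (0.32, next −0.98). ATX 1 stood high for fatty acid synthesis (2.82, next 0.3). LPA1 3 stood high for interferon response genes (1.79, next 0.23) and low for endothelial genes (−1.61, next −0.28). LPA1 4 stood high for class II antigen presentation (3.45, next 0.81) and macrophage genes (2.63, next 0.99).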

How the results depend on the processing

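With the settings of the report 0 genes were called, so no called gene could be checked for its direction under the alternatives. Of the 1715 genes at an unadjusted p under 0.05, 1677 kept their sign under the slide set covariate and 1674 under the slide block. On slides 1 to 4 the sign was kept by 1425, which were 641 of the 667 higher and 784 of the 1048 lower in ATX. Those settings share tumours with the fit that picked the genes. Counts of genes called moved from 0 to 2 with the first array of LPA1 4 (Tnfsf11 and Nabp1, 2 higher in ATX), 2 with exact zeros missing (1 higher, 1 lower, of 16985 genes), 1 with the feature of largest mean ratio (1 higher), 3 of 45177 features taken singly (2 higher, 1 lower) and 1723 with arrays weighted (459 higher, 1264 lower). Leaving out 1 tumour gave 0 to 25 genes called, 0 to 23 higher and 0 to 2 lower in ATX, with 25 without ATX 1, 4 without ATX 5 and 1 without ATX 4. Why these counts moved was not tested. The count was 0 in limma under the slide set covariate (1229 genes at an unadjusted p under 0.05), the slide as a fixed block (1120) or random block (1265), slides 1 to 4 (1179), slide 4 (595), the 2 groups alone (1555), the repeat array (1516), quantile normalization (1873), scaled arrays (1960) and a robust prior (1664). With the replicate block it was also 0 (1723 at an unadjusted p under 0.05). Deviations of ATX and LPA1 tumours of the same mouse number correlated at 0.0717, −0.137, −0.128, 0.113 and 0.0821, so the number did not pair them. Medians of lists moved by more than the spread between tumours in 13 cases and by less in 712, the 13 lying in the milk, squamous, cell division, adipocyte, skeletal muscle, liver and brain lists. Slides 1 to 4 hold only 2 LPA1 tumours. Signal over background is unknown, since the table holds ratios alone.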

Other observations

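Genes called when ATX 1 was left out included some outside the lists. Rhox5, a homeobox gene of the X chromosome, differed by 5.1 (limma adjusted p = 0.00933) between 4 ATX and 5 LPA1 tumours. Nmb, which encodes neuromedin B, differed by 2.68 (limma adjusted p = 0.0242), Pappa, a protease that frees insulin-like growth factors, by 2.37 (limma adjusted p = 0.0305) and Msx1, a homeobox transcription factor, by 1.85 (limma adjusted p = 0.0276). Nrg1 differed by 2.34 (limma adjusted p = 0.0215) in the same setting. With ATX 1 included it differed by 1.77 (limma adjusted p = 0.446), and by 1.04 on slides 1 to 4. With the settings of the report, which keep ATX 1, none of these genes was called. The smallest limma adjusted p of any gene was 0.0852 there. Leaving out ATX 1 gave the most calls of any single tumour left out, 25. These genes were chosen after their values were seen, and the setting leaves out the ATX tumour with the lowest list median of hormone-sensing genes.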
